A study of Homo sapiens with 30 samples.

Results

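A375 cells were compared at 24 h and at 1 h after the addition of 650 nM MLN4924, with 3 arrays at each time. The 6 arrays were chosen by their sample titles from the 30 arrays of the series, which hold 3 arrays of 650 nM MLN4924 and 3 of 0.065% DMSO at each of 1, 2, 4, 8 and 24 h. A375 is an established human melanoma cell line, and every group was grown from this 1 line. The DMSO arrays of 24 h and 1 h served as the vehicle arm, which shows what changed over the same hours without the compound. Whether the MLN4924 cultures also carried DMSO as a solvent is not given in the sources used here, and no array of cells before the addition was used. No label says whether the 3 arrays of a group came from separate cultures, and p-values below therefore rest on a spread that may be technical.

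MLN4924, also known as pevonedistat, blocks the NEDD8-activating enzyme, whose subunits are NAE1 and UBA3. This enzyme starts the transfer of the ubiquitin-like protein NEDD8 onto cullins, the scaffolds of the cullin-RING ubiquitin ligases, which need the modification for full activity. Known substrates of these ligases include NRF2 (recognised by KEAP1 on CUL3), the replication licensing factor CDT1, the CDK inhibitors p21 and p27 and the inhibitors of NF-kB. A gene can differ between treated and vehicle cells at 24 h because it moved in either of them. The change within the treated arm shows only whether the treated level of 24 h differs from that of 1 h. A gene that moved and returned in between shows little change there.

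Each gene signal is a probe set signal after quantile normalization. The array medians and the ratios of 3' to 5' probe sets below are of the signals as deposited. Means are given to 3 significant digits. Log2 changes compare the group means on the scale log2(signal + 32), which understates changes of dim genes. A gene was called where its adjusted p was below 0.05 (limma, Benjamini-Hochberg over 19775 genes), with n = 3 arrays per group. The median signal of the 24 h arrays lay between 33.6 and 35.2 and that of the 1 h arrays between 34.7 and 35.7. The ratio of 3' to 5' probe sets of ACTB, a measure of RNA integrity, was 1.263 to 1.331 at 24 h and 1.238 to 1.56 at 1 h (exact permutation test, two-sided, p = 0.8, where 0.1 is the smallest p that 3 against 3 arrays allow). For GAPDH the ratio was 0.861 to 0.916 against 0.866 to 0.904 (exact permutation p = 0.9). On the first principal component of the 12 arrays of both arms and times (50.8% of the variance) the treated arrays of 24 h scored 44.11 to 47.12. The treated arrays of 1 h scored -12.61 to -11.68, beside the DMSO arrays of 1 h at -12.66 to -10.33 and of 24 h at -22.76 to -21.6. At 1 h 1 gene (0.00506%), CHAC1, was called between the MLN4924 and the DMSO arrays. The arrays are scaled to one another, so a change in the total RNA of a cell would not appear in any value, and in bulk RNA fewer cells of a kind and less RNA per cell cannot be told apart.

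Within the treated arm 5885 of 19775 genes were called between 1 and 24 h (29.8%), 2822 higher (14.3%) and 3063 lower (15.5%). The change was at least 2-fold for 727 of them, 300 higher and 427 lower, and the median change over all genes was 0.005. The 3 arrays of 24 h did not overlap the 3 of 1 h for 8087 of the 19775 genes (40.9%). For genes named below by the size of their treated change or as leading list members, no overlap was a condition of the choice. Where it is stated for them it describes the arrays and adds no support. In the vehicle arm, which shares no array with the treated arm, 3634 genes were called (18.4%), 1959 higher (9.91%) and 1675 lower (8.47%), and 114 changed at least 2-fold. The treated change minus the vehicle change was called for 5136 genes (26.0%), 2385 higher (12.1%) and 2751 lower (13.9%).

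GDF15, a stress-induced secreted cytokine of the TGF-beta superfamily, had the largest increase. Its signal was 61.5, 51.5 and 36.3 on the arrays of 1 h and 8238, 7834 and 8374 on those of 24 h. The 24 h arrays were close to one another and far above all those of 1 h, and the log2 change was 6.66 (SE 0.13, adjusted p = 5.28e-21). This value comes from the brightest of 3 GDF15 probe sets. The others also rose but stayed dim, with means of 13.8 and 46.4 at 24 h, so the mean of all 3 gave a log2 change of 2.76, and the probe set left when those shared between transcripts (_x_at and _s_at) were dropped gave 0.44.

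The stress-induced transcription factor ATF3 read 95.2, 100.1 and 127 at 1 h and 2095, 2178 and 2326 at 24 h, a log2 change of 4.01 (SE 0.11, adjusted p = 1.24e-18). ANKRD1, a nuclear ankyrin repeat protein and a target of YAP, went from 103, 98.8 and 84.4 to 1433, 1493 and 1598, a log2 change of 3.60 (SE 0.12, adjusted p = 7.87e-17). In both genes the arrays of the 2 times were far apart. Both fell in vehicle, ATF3 with a log2 change of -1.02 (adjusted p = 2.38e-07) and ANKRD1 with -0.73 (adjusted p = 9.7e-05). The ATF3 increase was 2.49 with the mean of its probe sets and 2.41 without the shared ones, and its vehicle change was not called without them.

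IL24, a cytokine of the IL-10 family, read 162, 159 and 155 at 1 h and 1523, 1454 and 1539 at 24 h. The treated change was 3.01 (SE 0.09, adjusted p = 1.6e-17), and the arrays did not overlap. The path was not monotonic, since the mean had dropped to 56.5 at 8 h, a log2 change of -1.11 from 1 h (adjusted p = 6.07e-09). Between 1 and 8 h 2423 genes were called in the treated arm (12.3%).

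Among the other large increases, the cell adhesion protein NECTIN4 came up from near background, 5.1, 21.8 and 22.1, to 414, 412 and 446 (log2 change 3.26, adjusted p = 2.63e-12). SNAPC1, a subunit of a complex that activates small nuclear RNA genes, read 880.3, 783 and 874 at 1 h and 5855, 5855 and 5680.2 at 24 h (log2 change 2.73, adjusted p = 1.24e-18). In both genes the 24 h arrays lay above every array of 1 h. CCNB1IP1, a ubiquitin ligase that binds cyclin B1, rose by a log2 change of 2.88, the calcium-binding protein S100P by 2.70 and the zinc finger gene ZFP82 by 2.69. PLCXD2, a phospholipase C-like gene, rose by 3.90, or by 2.01 with the mean of its probe sets.

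**Figure D1:**
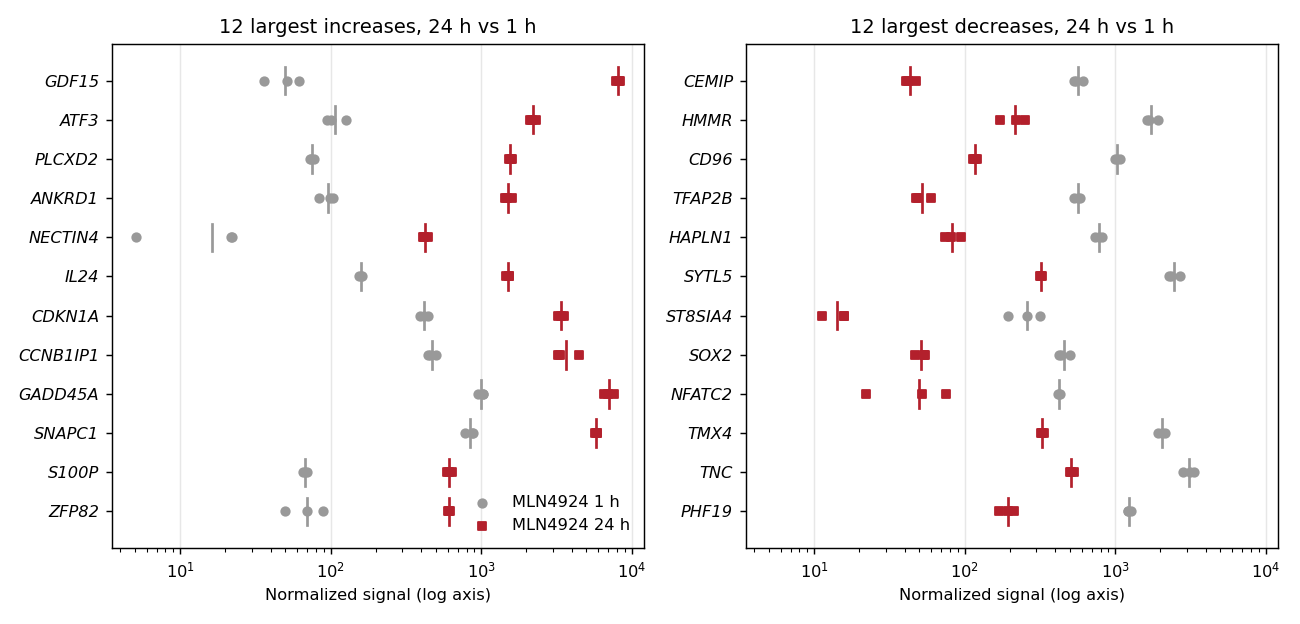
Normalized signal (log axis) of the 12 genes with the largest increase and the 12 with the largest decrease, with circles or squares for the 3 arrays of each time and a line at their mean. In every gene shown the arrays of 24 h and of 1 h do not overlap, which the choice of these genes required.

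The largest decreases included genes of the matrix, of membranes and of transcription. CEMIP, a hyaluronan-degrading protein, read 537, 613 and 551 at 1 h and 42.1, 47.8 and 40.9 at 24 h, a log2 change of -2.98 (SE 0.11, adjusted p = 3.7e-16). This decrease was seen in 1 bright probe set. The other CEMIP probe set stayed at background (means of 2.28 and 2.46) with a change of 0.01, and the mean of both gave -1.49. HAPLN1, a link protein of hyaluronan and proteoglycans, went from 823, 737 and 786 to 94.1, 81.2 and 74.1 (log2 change -2.82, adjusted p = 2.52e-16).

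The matrix glycoprotein tenascin C, TNC, read 2808, 3354 and 3154 at 1 h and 506, 531 and 499 at 24 h (log2 change -2.52, adjusted p = 7.12e-15). CD96, a cell surface protein of the immunoglobulin superfamily, went from 1002, 1074 and 1028 to 121, 114 and 117 (log2 change -2.83, adjusted p = 1.61e-20), and SYTL5, an effector of the vesicle GTPase RAB27, from 2287, 2705 and 2341 to 316, 319.5 and 325 (log2 change -2.81, adjusted p = 2.45e-19). In each of these genes all arrays of 24 h were below all arrays of 1 h. PHF19, an accessory subunit of Polycomb repressive complex 2, fell with a log2 change of -2.50, and the transcription factors NFATC2 and SOX2 with a log2 change of -2.53 and -2.54. With the mean of their probe sets these were -1.20 for NFATC2 and -1.15 for SOX2. TMX4, a thioredoxin-related membrane protein, fell with a log2 change of -2.52 (-1.46 with that mean), and ST8SIA4, a polysialyltransferase, with a log2 change of -2.62. The ST8SIA4 value was -1.56 with that mean and -4.07 after adding 1 rather than 32 to the signal.

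Genes of the pathway that MLN4924 acts on moved in both directions. Of 14 measured genes of NEDD8 attachment 5 rose and 3 fell, beside 14.3% and 15.5% of all genes, with a median log2 change of 0.105, and the risers were 3 without the shared probe sets or with the 6 arrays fitted alone. NAE1, a subunit of the inhibited enzyme, read 2940.4, 2954 and 3007 at 1 h and 3335, 3362 and 3335 at 24 h, a log2 change of 0.17 (adjusted p = 0.0171). That call ended with the signals as deposited, with median centring, in fits of fewer groups and without replicate 1 of 1 h. UBA3, the other subunit, had a change of -0.17 that was not called (adjusted p = 0.473), and NEDD8 itself one of 0.14 (adjusted p = 0.0839).

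RBX1, the RING subunit of most cullin ligases, read 1666, 1764 and 1554 at 1 h and 1028, 998 and 956 at 24 h, with no overlap, and fell with a log2 change of -0.72 (SE 0.07, adjusted p = 3.28e-08). The RBX1 paralog RNF7, which serves CUL5, rose by 0.30, and UBE2F, the NEDD8-conjugating enzyme for CUL5, fell with a log2 change of -0.37. DCUN1D3 and DCUN1D2, which assist cullin neddylation, rose by 0.62 and 0.55. Of 8 measured cullins 2 passed the test, a share near the 29.8% of all genes: CUL5 at 0.43 and CUL4B at 0.27. The CUL5 value was -0.14 with the mean of its probe sets, and the CUL4B call ended in 7 of its alternatives, among them 4 that leave out 1 array. CUL1, CUL3 and CUL4A had changes of -0.07, -0.04 and -0.09, none of them called. A dimmer probe set of CUL4A rose by 1.01 (means of 120 and 275) and one of CUL3 by 0.40 (139 and 193), by their unadjusted p-values of 1.41e-10 and 0.000587. Of 10 measured subunits of the COP9 signalosome, which removes NEDD8 from cullins, 3 rose and 2 fell, beside 14.3% and 15.5% of all genes. The fallers were 0 or 1 in 11 of the alternatives, among them 5 that leave out 1 array. RNF7 and UBE2F were named after their values were seen.

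Of 27 measured substrate receptors and adaptors of cullin ligases 8 rose and 9 fell, beside 14.3% and 15.5% of all genes (median log2 change 0.087), and the fallers were 4 when the 6 arrays were fitted alone and 5 without the shared probe sets or without replicate 2 of 1 h. DDB2, a receptor that recognises ultraviolet lesions and is itself a p53 target, read 410.4, 389 and 416 at 1 h and 1559, 1459.8 and 1582 at 24 h (log2 change 1.84, adjusted p = 7.79e-14). DTL, the receptor that directs CDT1 and p21 to destruction, went from 1084, 1293 and 1079 to 2178, 2275 and 2348 (log2 change 0.96, adjusted p = 4.13e-10). Neither gene's arrays overlapped. FBXO5, an inhibitor of the anaphase-promoting complex, and CCNF, the cell cycle F-box protein cyclin F, fell with a log2 change of -1.41 and -1.05.

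NRF2 activates genes of glutathione, thioredoxin and drug metabolism. Of 33 measured NRF2 targets 21 rose and 2 fell between 1 and 24 h, with a median log2 change of 0.493, against 14.3% and 15.5% of all genes. Without the shared probe sets, which leaves 27 members, 13 rose. SRXN1, which reduces overoxidised peroxiredoxins, read 616, 709 and 640.5 at 1 h and 1669, 1747 and 1782 at 24 h, a log2 change of 1.36 (SE 0.07, adjusted p = 3.09e-13). TXNRD1, thioredoxin reductase, went from 3004, 3085 and 3122 to 7367, 7354 and 7475, a change of 1.26 (adjusted p = 5.41e-14, or 0.62 with the mean of its probe sets). Both genes were higher on every array of 24 h.

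The aldo-keto reductase AKR1B10 rose from 31.3, 45 and 28.4 to 221, 254 and 234 (log2 change 2.01, adjusted p = 1.16e-11). The quinone reductase NQO1 rose by 0.54 and the cystine transporter subunit SLC7A11 by 0.78 (0.51 with the mean of its probe sets). MAFF, a small MAF partner of NRF2, rose by 1.55, from 882, 875 and 901 to 2792, 2593 and 2601, while NFE2L2, which encodes NRF2, had a change of 0.03 (adjusted p = 0.842). CBR3, a carbonyl reductase, was 1 of the 2 members that fell, from 230.3, 249.8 and 228 to 87.9, 68.7 and 70.5 (log2 change -1.32).

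The other was HMOX1, haem oxygenase 1, which read 303, 407 and 295 at 1 h and 269, 241 and 289 at 24 h, a log2 change of -0.29 (SE 0.10, adjusted p = 0.0233). The difference rests on the second array of 1 h: without it the change was -0.15 and not called, and the call also ended with median centring, in fits of fewer groups and without replicate 2 of 24 h. Between those ends the treated mean was 1810 at 2 h, 3730 at 4 h and 2310 at 8 h. At 24 h HMOX1 was above DMSO by 1.42 (adjusted p = 1.5e-11), beside a vehicle change of -1.16 from 1 to 24 h (adjusted p = 6.15e-09).

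GCLM, a subunit of the enzyme that limits glutathione synthesis, had a like course, with treated means of 1500 at 1 h, 3050 at 4 h, 3130 at 8 h and 1790 at 24 h. Its change over the whole period was 0.25 (adjusted p = 0.0233), a call that ended in a fit of the treated arrays alone and without replicate 2 of 1 h or replicate 2 or 3 of 24 h. From 1 to 8 h 27 of the 33 NRF2 targets rose and none fell, beside 6.08% and 6.17% of all genes, and from 8 to 24 h 2 rose and 12 fell, beside 11.6% and 13.1%. KEAP1, which presents NRF2 to CUL3, had a treated change of -0.32 (adjusted p = 0.0316), whose call ended in 5 of its alternatives.

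**Figure D2:**
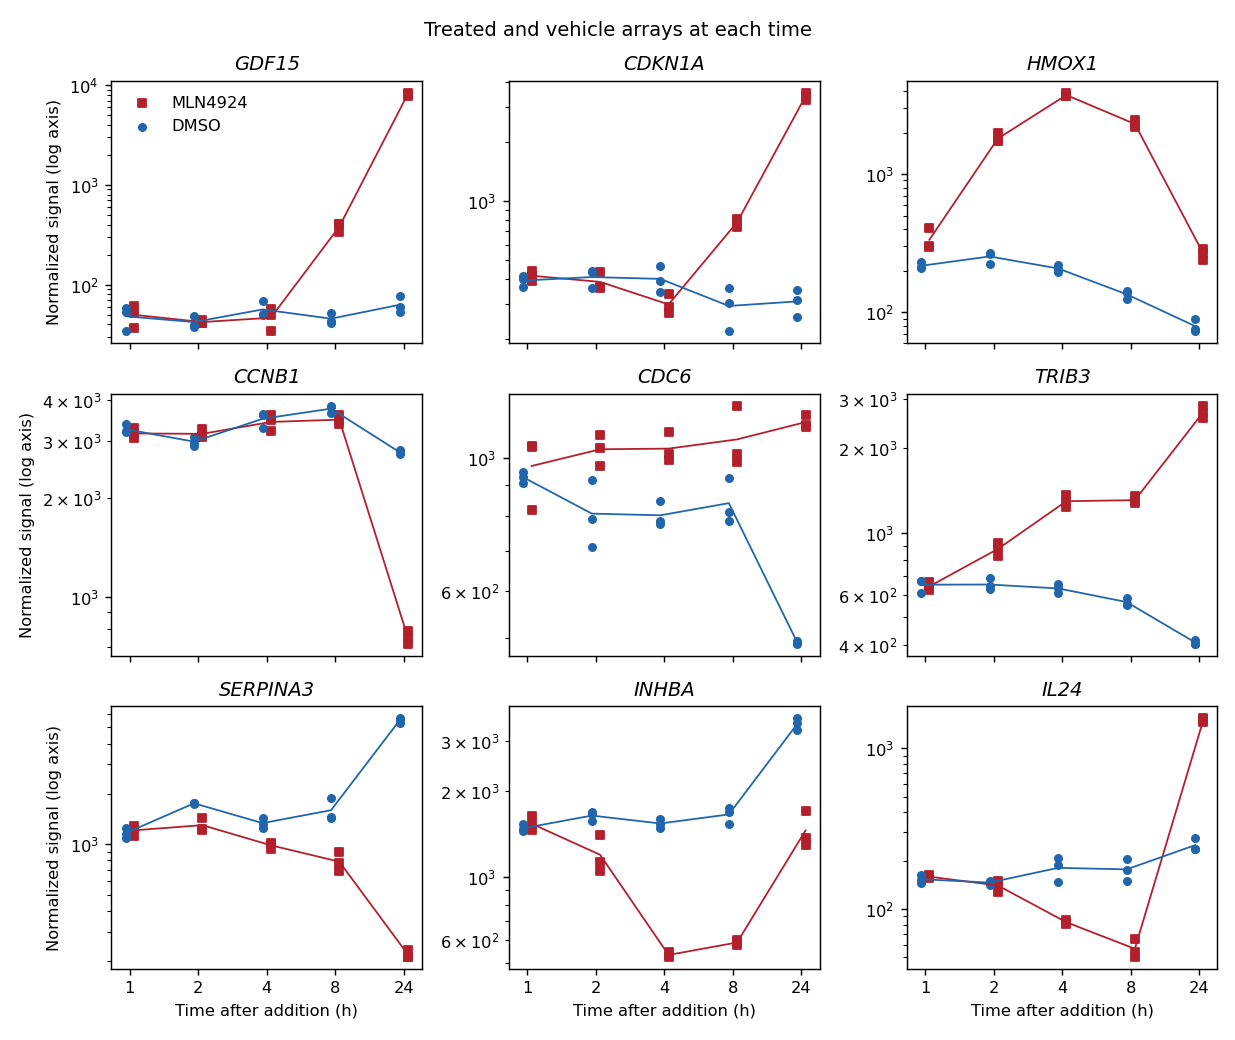
Normalized signal (log axis) on every treated and vehicle array at 1, 2, 4, 8 and 24 h for 9 genes, with lines through the group means. GDF15 and CDKN1A climb after 4 h, HMOX1 peaks at 4 h with a mean of 3730 and is back near its 1 h level at 24 h, and CCNB1 drops after 8 h.

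Most transcripts that p53 activates rose. Of 29 measured targets 25 rose and none fell, beside 14.3% and 15.5% of all genes, with a median log2 change of 1.268. Without the shared probe sets 17 of the 21 left rose. TP53I11, POLH, SPATA18 and KLLN did not pass the test, and are named because they complete the list. In vehicle 1 rose and 6 fell (median -0.088), beside 9.91% and 8.47% of all genes. The treated change exceeded the vehicle change for 24 of the 29, beside 12.1% of all genes. From 1 to 8 h 13 members rose and 1 fell in the treated arm, beside 6.08% and 6.17% of all genes. Between 8 and 24 h 23 rose, beside 11.6% of all genes.

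CDKN1A, which encodes the CDK inhibitor p21, read 414, 394 and 443 at 1 h and 3412, 3252 and 3529 at 24 h, a log2 change of 2.93 (SE 0.13, adjusted p = 1.38e-14). MDM2, the ubiquitin ligase that restrains p53, went from 893, 876 and 925 to 5494, 5649.9 and 4842, a change of 2.52 (SE 0.10, adjusted p = 4.26e-16). All 10 MDM2 probe sets with 1 symbol rose, by log2 changes of 0.92 to 3.38. For CDKN1A and MDM2 alike the 3 arrays of 24 h lay well above those of 1 h.

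GADD45A, a growth arrest and DNA damage response gene, read 1032, 947 and 1034 at 1 h and 6519, 7631 and 7008 at 24 h, with no overlap (log2 change 2.77, adjusted p = 1.85e-16). In vehicle GADD45A fell, with a log2 change of -0.98 (adjusted p = 1.14e-07). The death receptor gene FAS went from 237, 246 and 257 to 1311, 1302 and 1339 (log2 change 2.28, adjusted p = 6.43e-18, and 1.10 by the probe set left without the shared ones). Of 23 measured genes of the BCL2 family and of death signalling 8 rose and 3 fell, beside 14.3% and 15.5% of all genes. That list shares members with the p53 list. TNFRSF10B and TNFRSF10A, receptors for the ligand TRAIL, rose by 1.27 (0.67 with the mean of its probe sets) and 1.03.

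Most targets of ATF4, the transcription factor of the amino acid and integrated stress response, rose in the treated arm and fell in vehicle. Of 23 measured members 19 rose and 1 fell with MLN4924 (median log2 change 0.747), beside 14.3% and 15.5% of all genes. In vehicle 1 rose and 17 fell (median -0.514), beside 9.91% and 8.47%. Of these members 14 rose with MLN4924 and fell in vehicle. Without the shared probe sets 12 of the 15 members left rose. The member that fell was ATF5 (-0.61, named after its value was seen). ATF4 itself, named outside the rule because the list holds its targets, had a treated change of 0.01 (adjusted p = 0.929). In vehicle ATF4 fell with a log2 change of -0.47 (adjusted p = 3.01e-06).

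TRIB3, a pseudokinase, read 626, 668 and 639.6 at 1 h and 2676, 2567 and 2842 at 24 h (log2 change 2.01, SE 0.06, adjusted p = 4.05e-18), and in vehicle it fell with a log2 change of -0.64. PPP1R15A, a phosphatase subunit that reverses the stress response, went from 231, 207 and 192 to 739, 653 and 778 (log2 change 1.64, adjusted p = 5.02e-12), and in vehicle it fell with a log2 change of -0.66. For both genes every treated array of 24 h was above every one of 1 h. DDIT3, which encodes the stress factor CHOP, rose by 1.35, from 149, 162 and 129.9 to 462, 389.9 and 416. CHAC1, which degrades glutathione, rose by 1.33 and was already 0.59 above DMSO at 1 h (adjusted p = 0.0079). DDIT4, an inhibitor of mTORC1, rose in both arms, by 1.53 with MLN4924 and by 1.25 in vehicle, and the difference between arms was not called (0.28, adjusted p = 0.114).

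Chaperone genes were mostly lower where they changed. Of 16 measured genes of the unfolded protein response, the endoplasmic reticulum programme, 2 rose and 9 fell, beside 14.3% and 15.5% of all genes (median log2 change -0.343), and the risers were 1 with the mean of the probe sets or without the shared ones. PDIA4, a protein disulfide isomerase, read 746, 895 and 804 at 1 h and 422, 474 and 419 at 24 h (log2 change -0.85, and -0.41 without the shared probe sets), and DNAJC3, a co-chaperone, 769, 804 and 727 and 462, 466 and 435 (log2 change -0.72). The transcription factor XBP1 rose by 0.70, a call that ended with the mean of its probe sets (0.25). Of 11 measured heat shock chaperones none rose and 7 fell (median -0.375; of the 7 left without the shared probe sets 1 rose and 3 fell), among them BAG3, from 1778, 1793 and 1787 to 1015, 933 and 1001 (log2 change -0.84). The arrays of 24 h and 1 h did not overlap for PDIA4, DNAJC3 or BAG3.

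Cell cycle genes mostly fell. Genes of DNA synthesis at the G1/S transition are known targets of E2F factors, and many genes of mitosis carry a CHR element (letters TTTGAA) bound by the DREAM and MuvB complexes. The windows of 250 bases before the annotated start of the gene are shown for a pair of mitotic genes that fell, HMMR and PLK1, and for 2 genes of the G1/S list that moved in opposite directions, MCM6 and E2F7. These genes were picked for a large change among named list members whose window holds the letters marked below. The presence of the letters in them was thus fixed by the choice. The windows are from RefSeq (GRCh38.p14), each written along the strand of its gene: HMMR at chr5:163460382-163460631 (plus strand), PLK1 at chr16:23678639-23678888 (plus strand), MCM6 at chr2:135876444-135876693 (minus strand) and E2F7 at chr12:77065570-77065819 (minus strand). Capitals mark TTTGAA or its reverse complement TTCAAA in HMMR and PLK1, and the E2F-type letters TTNGCGC or GCGCNAA in MCM6 and E2F7.
HMMR: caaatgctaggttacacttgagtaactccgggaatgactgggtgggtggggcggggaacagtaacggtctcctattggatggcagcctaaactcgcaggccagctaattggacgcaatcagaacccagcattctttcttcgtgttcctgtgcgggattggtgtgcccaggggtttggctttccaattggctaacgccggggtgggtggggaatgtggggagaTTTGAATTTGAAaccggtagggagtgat
PLK1: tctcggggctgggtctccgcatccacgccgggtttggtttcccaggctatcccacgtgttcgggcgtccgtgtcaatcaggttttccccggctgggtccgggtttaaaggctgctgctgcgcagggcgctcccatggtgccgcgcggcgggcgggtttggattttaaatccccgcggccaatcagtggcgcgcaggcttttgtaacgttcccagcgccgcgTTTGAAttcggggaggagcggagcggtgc
MCM6: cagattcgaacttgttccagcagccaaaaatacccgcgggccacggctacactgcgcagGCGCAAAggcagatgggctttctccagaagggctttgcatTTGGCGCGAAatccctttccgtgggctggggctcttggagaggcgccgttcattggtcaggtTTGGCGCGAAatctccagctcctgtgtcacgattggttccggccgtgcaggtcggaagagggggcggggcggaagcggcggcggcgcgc
E2F7: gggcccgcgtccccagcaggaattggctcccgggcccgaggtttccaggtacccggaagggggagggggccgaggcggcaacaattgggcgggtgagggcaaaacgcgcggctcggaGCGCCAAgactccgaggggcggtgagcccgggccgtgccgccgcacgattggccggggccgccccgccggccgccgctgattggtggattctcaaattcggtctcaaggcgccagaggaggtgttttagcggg

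On either strand TTTGAA was found in 31 of the 58 windows of the G2/M list (53.4%, 48 of its 56 genes matched), in 3 of the 52 of the G1/S list (5.77%, 38 of 45 matched) and in 13.3% of all 35116 windows. TTNGCGC was found in 7 windows of the G2/M list (12.1%), in 22 of the G1/S list (42.3%) and in 6.6% of all windows. These matches describe letters in a window and were not tested as binding sites.

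Of 56 measured G2/M genes 55 fell in the treated arm and none rose, beside 15.5% and 14.3% of all genes, with a median log2 change of -1.254. The remaining gene was CKS1B (0.04, adjusted p = 0.716, named because it completes the list). The count was 39 of the 43 genes left without the shared probe sets. In vehicle 24 members fell and none rose (median -0.238), beside 8.47% and 9.91% of all genes. The treated change lay below the vehicle change for 47 and above it for 1, beside 13.9% and 12.1% of all genes. From 1 to 8 h 5 members rose and 2 fell in the treated arm, beside 6.08% and 6.17% of all genes. From 8 to 24 h 54 fell, beside 13.1% of all genes.

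HMMR, a microtubule-binding protein of the spindle, read 1619, 1916 and 1685 at 1 h and 219.9, 253 and 171 at 24 h, a log2 change of -2.85 (SE 0.10, adjusted p = 2.52e-16). The mitotic kinase PLK1 went from 293, 295 and 273 to 48.1, 47.6 and 38.9, a change of -2.05 (SE 0.11, adjusted p = 3.09e-13). In both genes the 24 h arrays lay far below those of 1 h. HMMR had a vehicle change of -0.03 (adjusted p = 0.907), and PLK1 fell in vehicle with a log2 change of -0.50 (adjusted p = 0.00201).

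CCNB1, cyclin B1, read 3278, 3149 and 3050.3 at 1 h and 787, 754 and 716 at 24 h (log2 change -2.02, adjusted p = 1.72e-18), with a mean of 3480 still at 8 h. CDK1, its kinase partner, went from 3590.5, 3691 and 3571 to 1021, 1256 and 1287 (log2 change -1.59), and TOP2A, topoisomerase 2 alpha, from 2329.8, 2206 and 2116 to 677, 683 and 650.3 (log2 change -1.68). All of these were lower on every array of 24 h. The kinesin KIF20A fell with a log2 change of -2.46, the proliferation antigen MKI67 with a log2 change of -1.05 and the survivin gene BIRC5 with a log2 change of -1.24 (-0.78 with the mean of its probe sets).

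**Figure D3:**
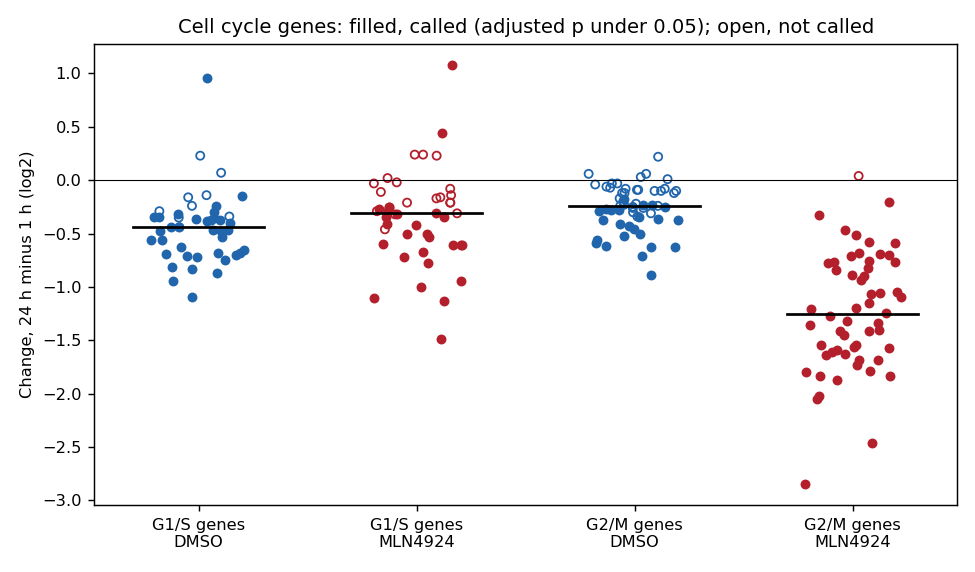
Log2 change from 1 to 24 h of each measured G1/S and G2/M gene in the vehicle and the treated arm, with filled points for called genes and a line at the list's median. The G2/M median is -1.254 with MLN4924 and -0.238 in vehicle, while the G1/S medians are -0.314 and -0.44.

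Fewer G1/S genes fell with MLN4924 than in vehicle. Of 45 measured members 25 fell and 2 rose with MLN4924, beside 15.5% and 14.3% of all genes (median log2 change -0.314). In vehicle 35 fell and 1 rose, beside 8.47% and 9.91% (median -0.44). The fallers with MLN4924 were 14 of the 32 genes left without the shared probe sets, and the risers were 4 with the signals as deposited, with median centring or with the mean of the probe sets. The treated change lay above the vehicle change for 12 members and below it for 6, beside 12.1% and 13.9% of all genes. The median of that difference was 0.112.

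MCM6, a subunit of the replicative helicase, read 2173, 2312 and 2149 at 1 h and 992, 1045 and 937 at 24 h (log2 change -1.13, adjusted p = 5.67e-14, or -0.69 with the mean of its probe sets). CCNA2, cyclin A2, went from 1429, 1367 and 1376 to 497, 487 and 445 (log2 change -1.49, adjusted p = 5.5e-12) and FEN1, a flap endonuclease, from 2582, 2475 and 2652 to 1223, 1152 and 1165 (log2 change -1.10). The arrays of the 2 times did not overlap for these 3 genes. FEN1 fell in vehicle too, with a log2 change of -0.83, and the difference between arms was not called (-0.28, adjusted p = 0.252).

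E2F7, a repressor of the E2F family, was 1 of the 2 risers, from 994, 1161 and 1065 to 2182, 2303 and 2401 (log2 change 1.08, adjusted p = 6.32e-11, or 0.67 with the mean of its probe sets). The other was CCNE1, cyclin E1, from 176, 209 and 194 to 291, 277 and 254 (log2 change 0.44, adjusted p = 0.000346, or 0.25 with that mean). Both were higher on every array of 24 h, and both fell in vehicle, although the CCNE1 call in vehicle ended when the 6 vehicle arrays were fitted alone or without DMSO replicate 2 of 24 h. CDC6, a licensing factor, read 1044, 818 and 1042 at 1 h and 1126, 1133 and 1177 at 24 h. Its arrays of 24 h were all above those of 1 h, by a log2 change of 0.24 that missed the threshold (adjusted p = 0.0561), while in vehicle it fell with a log2 change of -0.87 (adjusted p = 3.46e-07). CDT1, the cullin substrate, had a change of -0.31 that was not called (adjusted p = 0.34).

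Of 7 measured CDK inhibitor genes 2 rose and 4 fell, beside 14.3% and 15.5% of all genes, and 1 rose without the shared probe sets. CDKN1C, which encodes p57, read 249.6, 366 and 404 at 1 h and 24.2, 35.1 and 40 at 24 h, with no overlap (log2 change -2.50, adjusted p = 1.98e-10, or -1.54 with the mean of its probe sets). CDKN1B, which encodes the cullin substrate p27, fell from 915, 858 and 884 to 717, 671 and 721 (log2 change -0.32, adjusted p = 0.00113) and rose in vehicle by 0.60 (adjusted p = 1.72e-06). The other riser beside CDKN1A was CDKN2A, at 0.58, named after its value was seen.

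MYC and most measured genes of its network and of ribosome biogenesis rose. Of 20 measured members of that list 13 rose and 2 fell with MLN4924, beside 14.3% and 15.5% of all genes (median log2 change 0.454, with 1 faller in 7 of the alternatives). In vehicle 2 rose and 10 fell (median -0.23), beside 9.91% and 8.47%. MYC itself read 269.9, 235 and 245 at 1 h and 812, 797 and 794 at 24 h, a log2 change of 1.57 (SE 0.09, adjusted p = 1.46e-12), and its arrays did not overlap. The list also holds partners and antagonists of MYC, and the antagonists MXI1 and MXD1 rose too, by 1.41 and 0.83 (0.51 for MXD1 with the mean of its probe sets). MNT, another antagonist, fell with a log2 change of -0.76 (-0.37 with that mean). Of 18 measured cytosolic ribosomal protein genes none rose and 1 fell, RPL37, which turned direction with other probe sets. The risers of that list were 4 with the mean of the probe sets, 3 with an intensity trend in the variance, 2 without the shared probe sets and 1 with 64 added to the signal.

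Targets of YAP and SRF, which report on cell shape and contractility, were mostly higher in the treated arm and lower in vehicle where they changed. Of 21 measured members 11 rose and 1 fell with MLN4924 (median log2 change 0.58), beside 14.3% and 15.5% of all genes. In vehicle 1 rose and 10 fell (median -0.299), beside 9.91% and 8.47%. Of these members 7 rose with MLN4924 and fell in vehicle. FHL2, a LIM domain coactivator, read 406, 322 and 378 at 1 h and 2064, 1953 and 2120.2 at 24 h (log2 change 2.38, adjusted p = 3.06e-16). AJUBA, a LIM protein of cell junctions, went from 592, 605 and 639.6 to 1847, 1839 and 1744 (log2 change 1.52, or 0.95 with the mean of its probe sets), and in vehicle it fell with a log2 change of -1.07 (-0.59 with that mean). Neither gene's treated arrays overlapped. Smooth muscle actin, ACTA2, rose by 2.19, or by 0.80 with that mean. The member that fell was THBS1, thrombospondin 1 (-0.72, named after its value was seen), and 2 members fell with the signals as deposited.

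Immediate early genes were mixed, with 9 of 21 measured members higher and 6 lower, beside 14.3% and 15.5% of all genes, or 5 and 2 of the 14 left without the shared probe sets. EGR1, a zinc finger factor, read 314, 360.5 and 189.5 at 1 h and 1360.3, 1339 and 1664 at 24 h (log2 change 2.25, adjusted p = 1.45e-11), but it also rose in vehicle, by 1.74, and the difference between arms was not called (0.51, adjusted p = 0.0846). FOS had a change of -0.17 that was not called (adjusted p = 0.624). The AP-1 genes JUND and FOSL2 rose by 1.46 (0.97 with the mean of its probe sets) and 1.46. The FOSL2 signal was 142, 161 and 131 at 1 h and 454, 442 and 458 at 24 h, so every array of 24 h was above those of 1 h.

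Transcripts that report on MAPK signalling, which is constitutively driven by mutant BRAF in A375, mostly fell. Of 19 measured members 13 fell and 4 rose with MLN4924 (median log2 change -0.407), beside 15.5% and 14.3% of all genes. In vehicle 2 fell and 9 rose (median 0.218), beside 8.47% and 9.91%. Of these members 7 fell with MLN4924 and rose in vehicle. SPRY2, a feedback inhibitor, read 2253, 2387 and 2184 at 1 h and 697, 675 and 609.9 at 24 h (log2 change -1.74, adjusted p = 2.8e-15), and its mean had come down to 813 by 4 h. The ERK phosphatase gene DUSP6 went from 3686, 3563 and 3542 to 1979.5, 1598 and 1719 (log2 change -1.02, adjusted p = 6.24e-07). Both were lower on every array of 24 h. The transcription factor ETV1 fell with a log2 change of -1.73, or -0.74 with the mean of its probe sets.

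Other phosphatase genes of the same list moved up. DUSP5 read 196, 216 and 168 at 1 h and 1058, 986 and 1093 at 24 h (log2 change 2.26, adjusted p = 6.26e-14), and DUSP1 391, 397 and 319 and 1247, 1106 and 1243 (log2 change 1.62, adjusted p = 6.63e-12, or 0.95 with the mean of its probe sets). The arrays of both genes were higher at 24 h without overlap. The remaining risers were LIF, a cytokine, at 1.40 and the receptor EPHA2 at 1.25, both named after their values were seen.

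Of 22 measured NF-kB targets 11 rose and 1 fell (median log2 change 0.371), beside 14.3% and 15.5% of all genes. When replicate 2 of 1 h was left out 2 fell. In vehicle 2 rose and 2 fell, near the 9.91% and 8.47% of all genes. The treated change exceeded the vehicle change for 8, beside 12.1% of all genes. Interleukin 6, IL6, read 23.3, 32.4 and 31.8 at 1 h and 210.4, 223 and 209 at 24 h (log2 change 2.01, adjusted p = 4.11e-13), and its mean was 29.7 at 8 h. TNFAIP3, the feedback inhibitor A20, went from 144, 129 and 107 to 292, 271 and 336 (log2 change 1.07, adjusted p = 1.91e-06). Neither gene's arrays overlapped. NFKBIA, which encodes the cullin substrate IkB alpha, had a change of -0.08 that was not called (adjusted p = 0.86). NFKB1, the p105 precursor, was the member that fell, from 532, 523 and 467 to 219, 278 and 263 (log2 change -0.92).

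CXCL8, interleukin 8, rose in both arms. Its treated signal was 586, 560.3 and 467 at 1 h and 1122, 1108 and 1112 at 24 h, a log2 change of 1.01 (adjusted p = 2.06e-10), beside 1.01 in vehicle, and the difference was 0.01 (adjusted p = 0.975). Of 24 measured genes of the senescence-associated secretory list, which shares GDF15, IL6 and CXCL8 with others, 9 rose and 4 fell, beside 14.3% and 15.5% of all genes, or 2 fell without the shared probe sets. The fallers included IGFBP5, an insulin-like growth factor binding protein, from 179.5, 223 and 190.3 to 14.5, 15.9 and 5.5 (log2 change -2.39, adjusted p = 1.88e-13). The low arrays of 24 h are near background, and the IGFBP5 value was -4.05 with 1 added to the signal and -0.73 with the mean of its probe sets.

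Genes of the melanocyte and neural crest lineage were mostly lower at 24 h where they changed. Of 19 measured members 7 fell and 1 rose with MLN4924, beside 15.5% and 14.3% of all genes (median log2 change -0.084). In vehicle 1 fell and 7 rose, beside 8.47% and 9.91% (median 0.174). TFAP2B, a transcription factor of the AP-2 family, read 570.5, 586 and 533 at 1 h and 59.7, 47.3 and 48.7 at 24 h (log2 change -2.83, SE 0.10, adjusted p = 1.95e-16), and all 3 of its probe sets fell. ERBB3, the neuregulin receptor, went from 2069, 2055 and 2119 to 395, 345 and 376 (log2 change -2.39, adjusted p = 1.64e-16, or -0.88 with the mean of its probe sets). Both genes were clearly lower on every array of 24 h, and both rose in vehicle, TFAP2B by 1.67 and ERBB3 by 0.77 (0.28 with that mean).

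SOX10, a neural crest regulator, read 569.6, 964 and 935 at 1 h and 403, 364 and 421 at 24 h (log2 change -0.97, adjusted p = 0.000231). The first array of 1 h was lower than the other two but still above those of 24 h. MITF, the melanocyte master regulator, did not pass the test (0.22, adjusted p = 0.147). S100B, a calcium-binding melanoma marker, fell with a log2 change of -1.57 (-0.81 with the mean of its probe sets) and rose in vehicle by 1.87 (0.97 with that mean). The member that rose with MLN4924 was TFAP2A at 0.38, named after its value was seen.

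Of 23 measured extracellular matrix and adhesion genes 12 fell and none rose (median log2 change -0.322), beside 15.5% and 14.3% of all genes. In vehicle 2 fell, near the 8.47% of all genes, and 6 rose, beside 9.91% (median 0.095). Beside TNC, the metalloproteinase inhibitor TIMP3 read 4767, 3574 and 4605 at 1 h and 1998, 1785 and 2144 at 24 h (log2 change -1.11, adjusted p = 1.51e-06). Of 16 measured genes of activin and TGF-beta signalling and its feedback 10 fell and 1 rose, beside 15.5% and 14.3% of all genes (median -0.36, 6 fallers of 12 left without the shared probe sets). TGFBI, a matrix protein induced by TGF-beta, went from 1038, 1255 and 1045 to 331, 354 and 304 (log2 change -1.66, adjusted p = 1.55e-13) and ID1, an inhibitor of basic helix-loop-helix factors, from 2268, 1976 and 2095 to 779, 692 and 712 (log2 change -1.50, adjusted p = 4.65e-11). The arrays of TIMP3, TGFBI and ID1 did not overlap.

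Of 13 measured genes of WNT signalling and its feedback 7 fell and 1 rose (median -0.334), beside 15.5% and 14.3% of all genes. Of the 11 genes left without the shared probe sets 3 fell. The riser was lost with the signals as deposited, with median centring and in fits of fewer groups. It was also lost without replicate 3 of 1 h or replicate 1 or 3 of 24 h. TCF7L2, a transcription factor of the pathway, read 3389.5, 3362 and 3306 at 1 h and 1389, 1466 and 1334 at 24 h (log2 change -1.25, adjusted p = 3.52e-13). The secreted antagonist SFRP1 went from 2014, 2052 and 2054 to 1014, 1000.0 and 989 (adjusted p = 5.73e-13). Both were lower on every array of 24 h and both rose in vehicle, by 0.30 and 0.35. Both vehicle calls ended with the mean of the probe sets (0.19 for TCF7L2 and 0.12 for SFRP1), and that of TCF7L2 also with the signals as deposited (0.20) and with median centring (0.19).

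Of 27 measured proteasome subunits 7 fell and 2 rose with MLN4924 (33.3% called, near the 29.8% of all genes, median log2 change -0.02), and 13 fell and none rose in vehicle (beside 8.47% of all genes lower there, median -0.236). The risers with MLN4924 were 5 with the mean of the probe sets. The fallers with MLN4924 were 3 with each array centred on its median and 2 without the shared probe sets. PSMC6, an ATPase of the regulatory particle, read 1836, 1744 and 1810.3 at 1 h and 1119, 1196 and 956 at 24 h (log2 change -0.71, adjusted p = 2.27e-08). Another ATPase subunit, PSMC3, rose by 0.40 and fell in vehicle with a log2 change of -0.50. The PSMC6 arrays of 24 h lay below all those of 1 h.

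**Figure D4:**
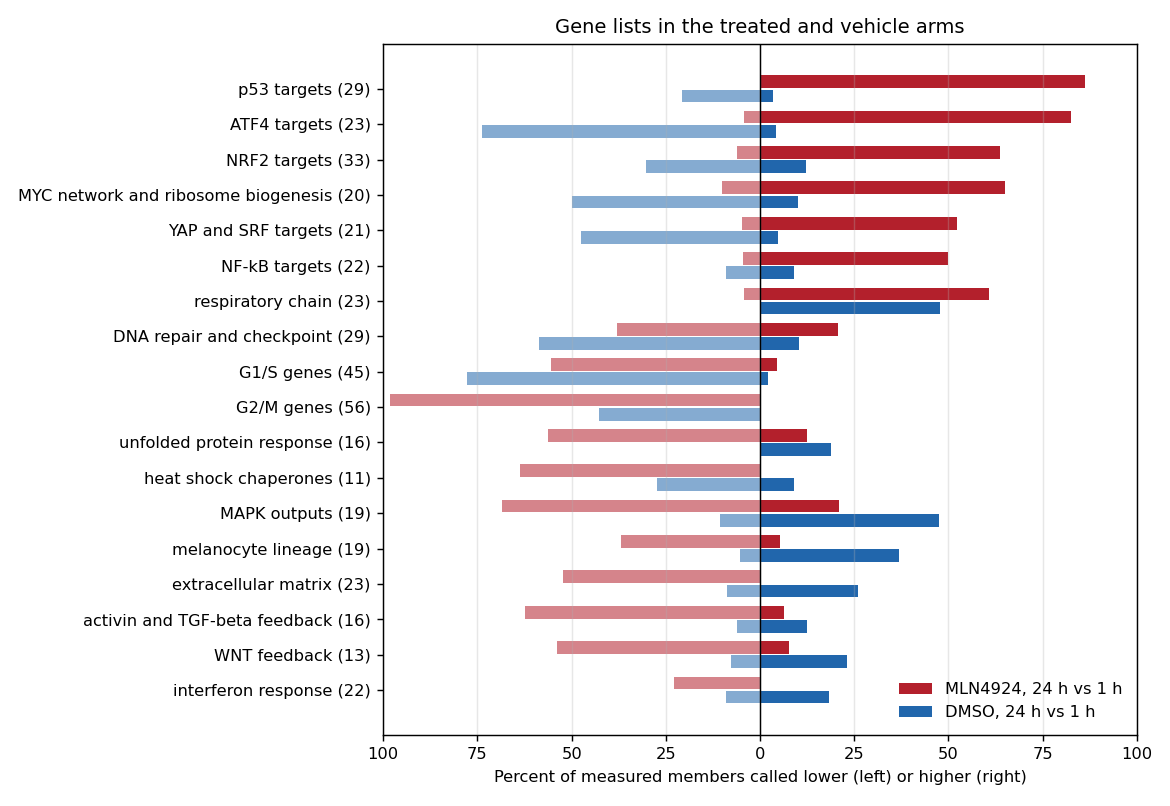
Percent of the measured members of each gene list called higher (right) or lower (left) from 1 to 24 h in the treated and in the vehicle arm, with lighter bars for lower calls and the number of measured members in brackets. In the treated arm 25 of 29 p53 targets were higher and 55 of 56 G2/M genes lower, and the ATF4 targets point right in the treated arm (19 of 23 higher) and left in vehicle (17 of 23 lower).

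The labelled cell type was checked against marker genes. Of 10 measured melanocyte lineage markers used for this check 7 were above the median of all signals in a treated group, MITF, SOX10, PAX3, TYR, S100B, CDH19 and ERBB3, and 4 fell. Also above it were 7 of 12 epithelial and keratinocyte, 4 of 10 fibroblast, 4 of 7 blood and 1 of 7 endothelial markers. Over the 10 groups of the series 6294 of 19775 genes never exceeded that median, so most genes did in some group. These counts therefore do not tell the cell types apart. The summed signal of the melanocyte markers was 4070 to 4520 at 1 h and 1740 to 1850 at 24 h, against 6620 to 7210 on the DMSO arrays of 24 h. The sum over 12 epithelial and keratinocyte markers was 5270 to 5940 at 1 h and 8580 to 9420 at 24 h, with KRT8, KRT18, SFN and FLG higher and KRT14 lower. KRT18, a simple epithelial keratin, read 2147, 2366 and 2216 at 1 h and 4649.7, 4543 and 4824 at 24 h (log2 change 1.05), and SFN, the p53 target 14-3-3 sigma, 268, 273 and 294 and 1205, 1233 and 1465 (log2 change 2.10). The sums over fibroblast markers were 387 to 413 and 349 to 399, those over blood markers 482 to 555 and 289 to 368, and those over endothelial markers 134 to 174 and 161 to 189. The part of other cell types in the results was not tested.

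The vehicle arm answers whether a change in the treated arm was also a change over time alone. Of the 2822 genes that rose with MLN4924, 453 rose in vehicle (16.1%, beside 9.91% of all genes), 474 fell (16.8%, beside 8.47%) and 1895 were not called there (67.2%). Of the 3063 that fell, 525 fell in vehicle (17.1%), 655 rose (21.4%) and 1883 were not called (61.5%). As a share of the vehicle lists, the genes that rose in both arms were 23.1% of the vehicle risers and those that fell in both were 31.3% of the vehicle fallers, while 33.4% of the vehicle risers fell with MLN4924 and 28.3% of the vehicle fallers rose. Of all genes 14.3% rose and 15.5% fell with MLN4924. The treated change went beyond the vehicle change in its own direction for 1817 of the risers (64.4%) and 2088 of the fallers (68.2%). Across the 19775 genes the changes of the 2 arms had a Pearson r of -0.0587, a description over genes that are not independent and that share the array normalization.

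**Figure D5:**
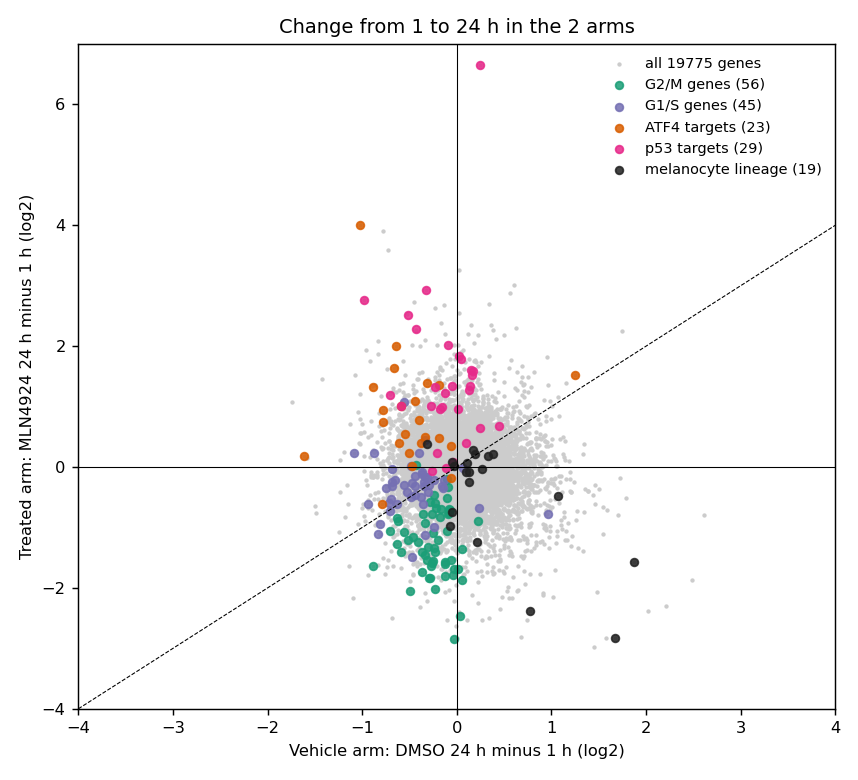
Log2 change from 1 to 24 h in the vehicle arm (horizontal) and in the treated arm (vertical) for all 19775 genes, with 5 gene lists coloured and a dashed line of equal change. On the treated axis 25 of 29 p53 targets are called above 0 and 55 of 56 G2/M genes below it, and GDF15 stands alone at 6.66.

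Several genes moved in opposite directions in the arms. SERPINA3, a serine protease inhibitor, read 1291, 1218 and 1124 at 1 h and 234, 212 and 212 at 24 h with MLN4924 (log2 change -2.30, adjusted p = 3.05e-15). On the DMSO arrays it read 1251, 1155 and 1089 at 1 h and 5329, 5659 and 5521 at 24 h (log2 change 2.21, adjusted p = 1.51e-13). The arms overlapped at 1 h and were far apart at 24 h. IGFBP5 moved likewise, with a log2 change of -2.39 with MLN4924 and 2.03 in vehicle, and SPRY4-IT1, a noncoding transcript of the SPRY4 locus, with a log2 change of -1.87 and 2.48. With the mean of the probe sets the vehicle change was 0.64 for IGFBP5 and 1.49 for SPRY4-IT1. The treated change of SPRY4-IT1 was -1.24 with that mean and -3.37 with 1 added to the signal.

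Some genes were called in the same direction in both arms, with a difference between arms that was not called. Beside CXCL8, the glycolytic enzyme ALDOC read 174, 162 and 159 at 1 h and 384, 371 and 421 at 24 h with MLN4924 (log2 change 1.10, adjusted p = 4.26e-08) and rose by 0.92 in vehicle. The nerve growth factor receptor NGFR went from 88.6, 124 and 76.9 to 15.1, 45.8 and 46.4 with MLN4924 (log2 change -0.95, adjusted p = 0.000893) and fell with a log2 change of -1.05 in vehicle. Their differences between arms were 0.18 (adjusted p = 0.499) and 0.10 (adjusted p = 0.869). Both genes' treated arrays were separate between the times. With 1 added to the signal the NGFR changes were -1.54 and -1.86.

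A further group differed from DMSO at 24 h, a contrast in which 6714 genes were called (34.0%), while the change within the treated arm was small. Among genes called in that contrast and in vehicle, with a treated change under 0.2 in size and an unadjusted p over 0.05, 326 were above DMSO and 436 below. SLC7A5, a leucine transporter and ATF4 target, read 2079, 2620.5 and 2326 at 1 h and 2579.8, 2507 and 2838 at 24 h with MLN4924, and its arrays overlapped (log2 change 0.18, 95% interval -0.07 to 0.42, adjusted p = 0.308). On the DMSO arrays SLC7A5 read 2488, 1971 and 2532 and 665, 909 and 659.6, a log2 change of -1.61 (adjusted p = 7.52e-10), and at 24 h SLC7A5 was 1.80 above DMSO.

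RRS1, a ribosome biogenesis factor, had a treated change of 0.19 (95% interval -0.02 to 0.40) beside -0.98 in vehicle, and IGFBP4, a growth factor binding protein, one of 0.12 (95% interval -0.18 to 0.41) beside -1.24. On the low side, INHBA, a subunit of activin A, read 1519, 1641 and 1459 at 1 h and 1301, 1707 and 1367 at 24 h with MLN4924, overlapping (log2 change -0.08, 95% interval -0.27 to 0.10, adjusted p = 0.572). Its vehicle change was 1.20 (adjusted p = 1.55e-09). The level of INHBA at 24 h was nevertheless a return, since the treated mean had fallen to 533 at 4 h (log2 change -1.48, adjusted p = 6.89e-11). SLC16A4, a monocarboxylate transporter, had a treated change of -0.18 (95% interval -0.52 to 0.15) beside 1.72 in vehicle.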

How the data were processed

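Total RNA of A375 cultures was hybridised to HG-U133 Plus 2.0 arrays, 3 per group. The authors deposited 1 linear intensity per probe set and array, and per the submitters' processing notes these came from Affymetrix Expression Console (version and summary method: not given in the sources used here). A 2% trimmed mean of the deposited values was 150.02 on every array, so they had been scaled to one level. The intensities were quantile normalized, 32 was added and log2 taken. Each gene was represented by its brightest probe set with 1 symbol, which gave 19775 genes (41097 of 54675 probe sets had 1 symbol, 1801 several and 11777 none). limma 3.58.1 in R 4.3.3 fitted a mean per group over all 30 arrays, with Benjamini-Hochberg adjustment within each contrast.

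The genes named are the 12 largest increases and decreases whose arrays do not overlap and whose higher group mean lies above the median of all values. A gene dim at one time, such as NECTIN4 at 1 h, can therefore pass. Also named are up to 4 called members of each list under the same conditions and genes alike or opposite in both arms. Genes called in vehicle with a small treated change from 1 to 24 h and a fixed set of pathway genes complete the choice. Names outside these are said to be so. The members, the 38 gene lists and the tests were chosen with earlier results of these data known.

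The fit was tested on simulated data before use. Deviations of arrays with the same replicate number correlated by -0.0426 to 0.0527, so the numbers were not treated as pairs. Alternatives changed the scaling, the value added, the filter on dim genes, the choice of probe sets, the arrays fitted and the variance model, or left out 1 array.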

Additional observations from a re-analysis of the deposited data

Results flagged for a closer look

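From 1 to 24 h the 12 genes listed here were called in opposite directions in the arms. The difference between the arms was itself called (limma, adjusted p between 1.03e-09 and 8.25e-18). Over all genes 474 such genes were higher and 655 lower with MLN4924, and others of them are named above. The 12 were chosen for the size of that difference, so the list shows the extreme and not a typical gene. Treated minus vehicle change was 5.03 for ATF3 (4.01 with MLN4924 and -1.02 in vehicle), 4.68 for PLCXD2 (3.90 and -0.78) and 4.33 for ANKRD1 (3.60 and -0.73). It was 3.75 for GADD45A (2.77 and -0.98), 3.18 for SNAPC1 (2.73 and -0.45) and 3.05 for MDM2 (2.52 and -0.52). Among genes lower with MLN4924 it was -4.51 for SERPINA3 (-2.30 and 2.21), -4.50 for TFAP2B (-2.83 and 1.67) and -4.44 for CEMIP (-2.98 and 1.45). It was -4.41 for IGFBP5 (-2.39 and 2.03), -4.40 for HAPLN1 (-2.82 and 1.58) and -4.35 for SPRY4-IT1 (-1.87 and 2.48). Without the shared probe sets the difference for CEMIP was -0.01 and not called (-2.22 with the mean of the probe sets), its vehicle change was 0.01 and not called, the vehicle change of ATF3 was -0.14 and not called, and the ATF3 difference was 2.55. The vehicle call of MDM2 ended both without the shared probe sets (-0.39) and with the mean (-0.17). With the mean the difference was 2.98 for ATF3, 2.54 for PLCXD2, -1.37 for IGFBP5 and -2.73 for SPRY4-IT1, which was -7.04 with 1 added to the signal.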

How the results depend on the processing

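Over 17 alternatives the treated arm gave 4421 to 5992 called genes (5256 to 5430 without 1 array), vehicle 2626 to 3861 over 16 (2819 to 3363) and the difference 3820 to 5346 over 22 (4691 to 5102), and none of these moved by over 1.5 times. With the replicate number as a block the counts were 5862, 3553 and 5116, and the block moved no count of calls by over 1.5 times. It ended the call of the difference for GPS1 (0.42) and MKI67 (-0.33) and of the vehicle change for NPC1 (0.23), and no other call of a named gene. Of 173 named genes called in the treated arm 28 lost the call in at least 1 alternative, and 9 turned direction in one. Without the shared probe sets the treated change was 0.01 for CEMIP, -0.04 for COPS6, 0.22 for COPS9, 0.04 for SC5D, 0.32 for LUM and 0.03 for RBM14, the vehicle change of LUM was -0.02, and the difference was 0.13 for CDKN2D, 0.11 for SC5D and 0.34 for LUM. With the mean of the probe sets the treated change was -0.14 for CUL5 and 0.16 for HSPA14, and the vehicle change of NPC1 was -0.04. RPL37 had a treated change of 0.04 as deposited, 0.05 with median centring, 1.40 with that mean and 2.52 without the shared probe sets, and differences of 0.05, 0.08, 1.27 and 2.39. The cause was not tested. With 3 arrays per group the number of arrays limits the precision, and probe sets near background understate changes.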

Other observations

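Respiratory chain genes that changed were mostly higher in both arms. Of 23 measured members 14 rose and 1 fell with MLN4924 (median log2 change 0.195), beside 14.3% and 15.5% of all genes. In vehicle 11 rose (median 0.189), beside 9.91% of all genes, and 6 rose in both arms. The risers with MLN4924 were 9 when the 6 arrays were fitted alone, and the fallers 2 with an intensity trend or without replicate 3 of 1 h and 0 without the shared probe sets. The faller was NDUFB10, a subunit of complex I, at -0.89. Cholesterol synthesis genes were mixed, with 5 of 18 higher and 4 lower, beside 14.3% and 15.5% of all genes. The risers were 8 with the mean of the probe sets and 3 when the 6 arrays were fitted alone. The fallers were 2 with that mean, without the shared probe sets, and without replicate 2 or 3 of 1 h or replicate 2 of 24 h. HMGCS1, an early enzyme of the pathway, rose by 0.76, and INSIG1, which retains the sterol sensor, had a treated change of -0.24 beside 1.24 in vehicle. Of 18 lysosome and autophagy genes 4 rose and 5 fell, beside 14.3% and 15.5% of all genes, and 3 fell without the shared probe sets. Their median of -0.053 became 0.07 without those and 0.06 with the mean. GABARAPL1, an autophagosome protein, rose by 1.87.

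Of 22 measured interferon response genes none rose and 5 fell (22.7%, beside 15.5% of all genes lower), with IFI44 at -1.24. In 3 alternatives 1 of them rose. Of 14 measured clustered histone genes 4 fell (28.6%, beside 15.5% of all genes lower), with H2BC12 at -1.87. The fallers were 2 when the 6 arrays were fitted alone and 1 of the 9 left without the shared probe sets. Of 29 measured DNA repair and checkpoint genes 6 rose and 11 fell, beside 14.3% and 15.5% of all genes, or 7 fell without those probe sets. The histone H2AX was at -1.79 (-0.92 with the mean of its probe sets) and the nuclease EXO1 at 0.74. The brightest probe set of RPL37 had a change of -0.16, while its other 3 probe sets had changes of 2.47, 0.78 and 2.52. The members named here from lists were chosen after their values were seen where the rule did not name them.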
